A study of Mus musculus with 12 samples.

Results

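The comparison described here sets an I/11 line that carries the hairpin sh14 against Plcg1 beside the control line that carries a scrambled hairpin (scr). I/11 is a mouse pro-erythroblast culture, known as a progenitor line from fetal liver of mice without p53, so the absence of p53 is shared by both lines. Arrays were assigned by the hairpin named in their labels, which gave 4 sh14 and 4 scr arrays, 8 of the 12 arrays of the study, with the other 4 from a line with a different Plcg1 hairpin, sh133. Each line was sampled at 1, 6, 12 and 22 h, with 1 array per line and time, and arrays of equal time were matched. Per the labels, the cells grew in serum-free medium with human erythropoietin, stem cell factor and dexamethasone, and the hairpins were delivered by lentivirus made from the pLKO vector, which carries puromycin resistance. Each hairpin is thus represented by a single stably infected line. The event that started the clock is not named in the labels, nor is it stated whether dexamethasone or stem cell factor was withdrawn, or whether the 4 arrays of a line came from separate cultures. P-values therefore measure only what line and time leave unexplained among these 8 arrays.

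Phospholipase C gamma enzymes are recruited to activated receptors and kinases and cleave a membrane phosphoinositide into inositol trisphosphate, which releases calcium, and diacylglycerol, which activates protein kinase C and Ras exchange factors. In red cell precursors the erythropoietin receptor signals through the kinase JAK2 and the transcription factor STAT5, and the series asks what Plcg1 contributes below that receptor. As erythroblasts mature, the factors GATA1 and KLF1 switch on heme synthesis, globins and the membrane skeleton, while progenitor genes such as Gata2 and Kit are switched off.

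Signals are log2 values made by RMA, a method that equalises the distribution of the arrays, so a change in total RNA cannot be seen in them. Array medians lay between 1.84 and 1.92, and a gene whose mean in the dimmer line fell below 1.92 is called near background here, where the size of a fold is uncertain. Actin signal near the 3' end exceeded that near the 5' end by 0.51 to 0.58 log2 in sh14 and by 0.55 to 0.63 in scr, ranges that overlap. The array titles carry 2 date strings whose meaning the labels do not give. All 4 sh14 arrays carry one and all 4 scr arrays the other, so the hairpin and whatever the date records cannot be told apart in these 8 arrays. All 10 erythroid progenitor markers checked (Kit, Tfrc, Epor, Gata1, Klf1, Tal1, Gfi1b, Nfe2, Car2 and Cd44) were above background in both lines. The first principal component of the 8 arrays held 43.1% of the variance and separated the lines, at -24.35 to -17.78 for sh14 and 10.97 to 25.94 for scr. The second held 24.7% and followed time in both.

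Of 12673 genes tested, limma with time as a matching term called 2272 at an adjusted p under 0.05, which is 17.9% of all genes. They divided into 1107 higher in sh14 (8.74% of all genes) and 1165 lower (9.19%). The sign was the same at all 4 times for 2243 of the called genes, beside 38.3% of all genes tested. In 1571 of them the 4 sh14 arrays did not overlap the 4 scr arrays, which held for 17.7% of all genes. Genes were called on these same differences, so both counts largely follow from the call and add no separate evidence. At least 2-fold differences numbered 154 upward and 145 downward, and 33 genes differed at least 4-fold. The median difference over all genes was 0.02 log2, and this value and the percentages above are what the gene groups below are read against. Each gene is read from its brightest probe set: of 244 called genes from the lists and stretches below, 65 had another within 1 log2 of it, and in 22 of these that one showed under 50% of the difference, in 3 with the other sign (Ppp3cb, Dmtn and Add2). Without the 6 h arrays 1033 genes were called, and without the 12 h arrays 1026.

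The targeted gene was checked first. Plcg1, read from its brightest probe set, was at 4.74, 4.45, 4.61 and 4.31 in scr and at 4.16, 3.86, 4.27 and 4.30 in sh14 at 1, 6, 12 and 22 h (log2 signal). Every sh14 array lay below every scr array, with a gap of -0.58 at 1 h, -0.59 at 6 h, -0.33 at 12 h and -0.01 at 22 h. Each time is 1 array per line, and limma's test of a change in this gap with log2 hours did not pass (adjusted p = 0.312). The mean difference was -0.38 ± 0.12 (SE, n = 4 matched pairs), equal to 76.9% of the scr signal, and missed the threshold (limma adjusted p = 0.0621). Fitted with the sh133 arrays for a shared estimate of the spread, the same difference had an adjusted p of 0.0201. With the date string as a further term in limma the difference was -0.36 (adjusted p = 0.456). Between sh14 and sh133 limma gave -0.26 (adjusted p = 0.0892), also not past the threshold. The other 2 Plcg1 probe sets, at means of 1.40 and 1.48, were too dim to read. The Plcg1 signal was thus lower in sh14 by a small amount that the main test did not call, and protein was not measured.

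Plcg2, which encodes the sister enzyme PLCγ2, stood at 4.98, 4.64, 4.58 and 4.58 in scr and at 5.93, 5.44, 5.77 and 5.40 in sh14. The lines did not overlap, and Plcg2 was 1.92-fold higher in sh14 (0.94 ± 0.10 log2, adjusted p = 0.000774). Among 51 tested genes of PLCγ signalling 11 rose, 5 fell and 35 did not pass, with a median of 0.12.

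The PLCγ genes that rose lie at several levels of the pathway. Of 11 adaptors and upstream kinases, 4 rose: Fyn, a Src family kinase, Lat and Lcp2, scaffolds that bring PLCγ to receptors, and Grb2, an adaptor to Ras (0.84, and 0.34 in its other bright probe set). Fyn was at 4.11, 4.30, 4.08 and 3.84 in scr and at 5.50, 5.73, 5.27 and 4.70 in sh14, 2.32-fold higher without overlap (1.22 ± 0.12, adjusted p = 0.000485). Lat was higher by 1.02 ± 0.10 (adjusted p = 0.000599), although its scr array at 1 h (4.67) exceeded its sh14 array at 22 h (4.38). Blnk, another PLCγ scaffold, fell by 1.30 to a mean near background. Among genes of calcium release and NFAT, 3 of 13 rose and 1 fell. Nfatc1, a calcium-regulated transcription factor, was at 3.14, 2.93, 3.32 and 2.87 in scr and 3.96, 4.46, 4.54 and 4.17 in sh14 (1.22 ± 0.12, adjusted p = 0.00062). Its next probe set was as bright (mean 3.78 against 3.80) and gave 0.14, so this rise is that of 1 probe set. Itpr2, a calcium release channel, rose by 0.79. The calcineurin phosphatase subunits Ppp3cb (0.32) and Ppp3ca (-0.42) passed on their brightest probe sets, but others of similar level gave -0.53 for Ppp3cb, the other direction at all 4 times, and -0.03 and -0.13 for Ppp3ca. Of 12 effectors of diacylglycerol, the kinases Prkca (0.86) and Prkce (0.72) rose. Prkd3, a protein kinase D, fell: it was at 5.50, 5.54, 5.69 and 5.74 in scr and at 4.01, 4.22, 4.32 and 4.15 in sh14 (-1.44 ± 0.09, adjusted p = 8.58e-05). Rasgrp2, an exchange factor for Rap proteins, fell by 0.93. Of the whole PLCγ list 3 genes were called lower and 8 higher without the 6 h or without the 12 h arrays.

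**Figure D1:**
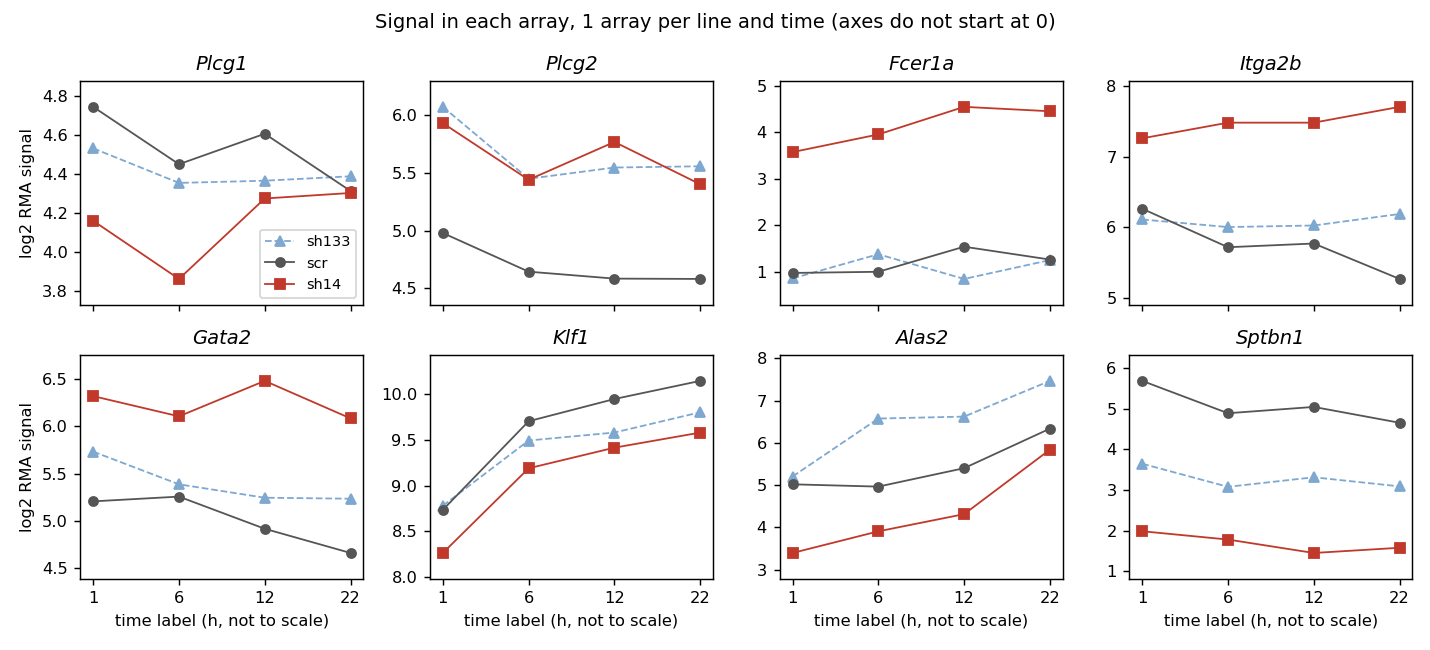
Log2 RMA signal (vertical axis, own range per panel) of 8 genes at each time label (horizontal axis, hours, not to scale) in scr (circles), sh14 (squares) and, for reference, sh133 (triangles), 1 array per point. In Plcg1 the sh14 points lie below scr and meet it at 22 h, Plcg2 is higher in both hairpin lines, and Fcer1a and Itga2b are higher in sh14 than in either other line at every time.

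The receptor pathway that the series asks about showed mixed and mostly small differences. Of 30 tested genes of EpoR, JAK2 and STAT5 signalling 4 rose and 5 fell, and their median was 0.03. Epor, the erythropoietin receptor, was at 6.55, 7.08, 7.24 and 6.98 in scr and at 6.08, 6.57, 6.50 and 6.83 in sh14. It was lower at all 4 times with overlapping arrays (-0.47 ± 0.11, adjusted p = 0.024). Jak2 was at a mean of 6.50 in both lines (difference -0.00 ± 0.11, adjusted p = 0.996). Jak1, a kinase of cytokine receptors, was at 7.02, 7.61, 7.23 and 6.67 in scr and 6.15, 6.40, 6.55 and 6.23 in sh14, without overlap (-0.80 ± 0.13, adjusted p = 0.00489). Stat5a had a difference of 0.27 ± 0.09 (adjusted p = 0.0723) and Stat5b of -0.16 ± 0.13 (adjusted p = 0.453), neither past the threshold. Stat6 rose by 0.56 and the adaptors Pik3r1 and Crkl by 0.42 and 0.41. The feedback inhibitors of cytokine signalling moved in both directions: Socs2 rose by 0.52, Socs1 fell by 0.47 and Socs3 by 0.85 (-0.11 in its other, dimmer probe set). Csn2, the casein gene known as a STAT5 target, was at 7.81, 8.45, 8.27 and 7.16 in scr and at 6.11, 6.44, 6.38 and 5.27 in sh14, 3.66-fold lower (-1.87 ± 0.09, adjusted p = 3.09e-05). Csn1s2b, its neighbour in the casein cluster, was instead higher by 0.88 ± 0.22 with overlap (adjusted p = 0.0289), a call lost with all 12 arrays (adjusted p = 0.156) or without the 1, 12 or 22 h arrays (0.0666, 0.073 and 0.0824). With the date string as a further term the Csn2 difference was -0.30 (adjusted p = 0.825). In the EpoR list 2 genes were called higher and 1 lower without the 6 h arrays, and 1 and 1 without the 12 h arrays.

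Of 22 tested erythroid transcription factors 5 rose and 4 fell, with a median of 0.02. Gata2, a progenitor and mast cell factor, was at 5.21, 5.26, 4.92 and 4.66 in scr and at 6.32, 6.10, 6.48 and 6.08 in sh14, 2.36-fold higher without overlap (1.24 ± 0.13, adjusted p = 0.000708). Its other probe set gave 1.50. Fli1, an ETS factor of the megakaryocyte lineage, rose by 0.89, Ets1 by 1.21, Runx1 by 0.85 and the corepressor Cbfa2t3 by 0.47. Of the 6 Runx1 probe sets, 5 were above 0 and 1 was at -0.14. Klf1, the activator of late erythroid genes, was at 8.74, 9.70, 9.95 and 10.15 in scr and at 8.26, 9.19, 9.42 and 9.58 in sh14. It climbed with the hours in both lines and was lower in sh14 by a nearly constant -0.47, -0.51, -0.53 and -0.57 (mean -0.52 ± 0.08, adjusted p = 0.00489). Gfi1b, a repressor needed in erythroid cells, fell by 0.44, the cofactor Ldb1 by 0.47 and Lyl1 by 0.54. Gata1 had a difference of -0.11 ± 0.10 (adjusted p = 0.499), Myb of 0.06 ± 0.13 (adjusted p = 0.784) and Kit, the stem cell factor receptor, of -0.50 ± 0.16 (adjusted p = 0.0736), none past the threshold. Without the 6 h arrays, and also without the 12 h arrays, 1 of the factors was called lower.

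Genes of the red cell membrane that passed were mostly lower. Of 22 tested 8 fell and 1 rose, and the median was -0.26. Of the 22 tested, 13 were lower at all 4 times, beside 2320 of all 12673 genes. Sptb, the erythroid beta spectrin, was at 5.46, 5.25, 5.36 and 5.67 in scr and at 4.06, 4.63, 4.65 and 4.99 in sh14 (-0.85 ± 0.14, adjusted p = 0.00513, without overlap). Dmtn, which bundles actin in the membrane skeleton, fell by 0.85, the adducins Add1 and Add2 by 0.54 and 0.62, and Epb42 (protein 4.2) by 0.42. Rhd, the Rh blood group protein, was at 7.09, 7.49, 8.16 and 8.72 in scr and at 5.96, 6.64, 7.39 and 8.37 in sh14 (-0.77 ± 0.13, adjusted p = 0.00571). It climbed in both lines and started lower in sh14. The water channel Aqp1 fell by 0.54 to near background and the amino acid transporter Slc43a1 by 0.49, while Cd59a, a complement inhibitor, rose by 0.70 ± 0.13 (adjusted p = 0.00815). For 3 of these genes another probe set within 1 log2 of the brightest gave -0.27 for Sptb (0.50 at 22 h), 0.11 for Dmtn and 0.05 for Add2. With the mean over all probe sets of each gene 7 of the list were called lower.

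Heme synthesis differed at its first step. Alas2, the rate-limiting erythroid enzyme, was at 5.02, 4.96, 5.40 and 6.34 in scr and at 3.39, 3.90, 4.31 and 5.84 in sh14, 2.10-fold lower (-1.07 ± 0.16, adjusted p = 0.00383). It was lower in sh14 at every matched time, and the arrays overlapped because both lines climbed. Of 16 genes of the group 4 fell and 1 rose, with a median of -0.10. The others that fell were the pathway enzymes Ppox (-0.73 ± 0.14) and Alad (-0.51 ± 0.14) and the mitochondrial transporter Abcb10 (-0.41 ± 0.10). Tspo2, an erythroid membrane protein that binds cholesterol, was at 5.43, 5.10, 5.21 and 5.58 in scr and at 6.03, 6.22, 6.41 and 6.84 in sh14, higher without overlap (1.04 ± 0.12, adjusted p = 0.00122). In iron handling 3 of 14 fell and 0 rose past the threshold (median -0.12). They were the mitochondrial iron importer Slc25a37 (-0.85 ± 0.12, adjusted p = 0.00262), the transferrin receptor Tfr2 (-0.47 ± 0.09) and the ferritin heavy chain Fth1 (-0.44 ± 0.10). These counts were smaller with a time left out: 1 gene of heme synthesis was called lower without 6 h or without 12 h, and 1 of iron handling without 6 h.

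Of 18 tested late erythroid enzymes and remodelling genes 4 fell and 1 rose (median -0.17). Bpgm, which makes the bisphosphoglycerate that tunes oxygen release, was at 6.02, 6.11, 6.17 and 6.01 in scr and at 4.68, 4.97, 5.13 and 5.35 in sh14, without overlap (-1.04 ± 0.12, adjusted p = 0.00113). Its other 2 probe sets gave -1.08 and -0.79. Of this list 1 gene was called lower and 0 higher without the 6 h or without the 12 h arrays. Btg2, an antiproliferative gene, rose by 0.64 ± 0.16 (adjusted p = 0.0283). Globins could be read only in part, since 4 were tested and the embryonic Hbb-bh1 alone passed (-0.38 ± 0.11, adjusted p = 0.0446, near background). It did not pass when any 1 time was left out, and a probe set as bright (mean 1.73 against 1.74) gave -0.03. With genes below percentile 60 of the probe sets left out, 1 member of the globin list remained, and it was called higher (0.54). The summed linear signal of the list was 63.7 to 230.5 in scr and 106.5 to 409.4 in sh14, which overlap. The globin list thus showed no single direction. The adult beta globin genes were not analysed here.

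Genes that rose included markers of lineages that share progenitors with red cells. Mast cell and basophil markers had 5 of 11 tested genes higher and 1 lower, at a median of 0.84, and megakaryocyte markers 7 of 17 higher and 0 lower, at 0.37. Without the 22 h arrays these medians were 0.49 and 0.16. Fcer1a, the alpha chain of the high-affinity IgE receptor, was at 0.98, 1.00, 1.54 and 1.26 in scr, near background, and at 3.58, 3.96, 4.55 and 4.46 in sh14. The difference was 2.94 ± 0.11 (adjusted p = 8.62e-06), with its size uncertain because scr was near background. The receptor's beta chain Ms4a2 (0.98 ± 0.09) and the mast cell protease Cpa3 (1.02 ± 0.13) rose from low levels, and both declined with the hours in both lines. Mitf, a mast cell factor, was at 3.03, 3.70, 3.60 and 3.73 in scr and at 4.17, 4.96, 4.97 and 5.02 in sh14 (1.26 ± 0.09, adjusted p = 0.000126). Gata2 is counted in this list too. Hdc, which makes histamine, went the other way (-0.69, past the threshold).

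Not every member of the mast cell list rose, although 8 of the 11 tested had a difference above 0. Of its 16 genes with a probe set 5 were under the filter, and in sh14 the means of 8, Fcer1g, Mcpt8, Mcpt4, Tpsb2, Tpsab1, Cma1, Mrgprb1 and Cd200r3, were below 1.92. Its summed linear signal was 204.9 to 1026.8 in scr and 296.1 to 598.0 in sh14, which overlap. In a bulk sample more cells of a type and more RNA per cell cannot be told apart.

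Among megakaryocyte genes, Itga2b, the platelet integrin subunit CD41, was at 6.26, 5.72, 5.77 and 5.27 in scr and at 7.26, 7.48, 7.48 and 7.71 in sh14, 3.32-fold higher (1.73 ± 0.20, adjusted p = 0.00106). The scr signal was lowest and the sh14 signal highest at 22 h, but limma's test of a change in the difference with log2 hours missed the threshold (adjusted p = 0.0627). Cd9, a platelet tetraspanin, was at 4.20, 4.26, 4.38 and 4.66 in scr and at 5.93, 5.99, 6.35 and 6.41 in sh14 (1.79 ± 0.09, adjusted p = 3.51e-05). Pf4, a platelet chemokine, was higher by 1.06 ± 0.20 (adjusted p = 0.0091), and Rab27b, a granule GTPase, by 1.02 ± 0.18. F2r, a thrombin receptor, rose by 0.67 and Gp6, a collagen receptor, by 0.38 from a level near background in scr. The summed signal of the list was 468.7 to 1104.2 in scr and 1063.3 to 1325.9 in sh14. In sh133 the sum was 1245.5 to 1372.5, so a high sum was not particular to sh14. Ppbp, Selp and Clec1b were near background in both sh14 and scr, and Gp6 and Vwf in scr. Without the 12 h arrays 4 of the list were called higher.

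Fcer1a, Itga2b and Alas2 are textbook targets of GATA factors. Their promoters are shown because they are among the larger of these lineage differences, upward for Fcer1a and Itga2b and downward for Alas2. The windows are the 250 bases before the annotated start from RefSeq on GRCm38.p6, read 5′ to 3′ on the gene's strand, at chr1:173227230-173227479 (minus strand), chr11:102469884-102470133 (minus) and chrX:150547167-150547416 (plus). Capitals mark the letters GATAA on either strand, which reads TTATC on the other.
Fcer1a: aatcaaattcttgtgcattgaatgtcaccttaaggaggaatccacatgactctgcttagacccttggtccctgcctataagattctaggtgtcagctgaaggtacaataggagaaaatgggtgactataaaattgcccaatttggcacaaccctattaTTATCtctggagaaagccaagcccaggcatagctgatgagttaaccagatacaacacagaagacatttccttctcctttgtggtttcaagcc
Itga2b: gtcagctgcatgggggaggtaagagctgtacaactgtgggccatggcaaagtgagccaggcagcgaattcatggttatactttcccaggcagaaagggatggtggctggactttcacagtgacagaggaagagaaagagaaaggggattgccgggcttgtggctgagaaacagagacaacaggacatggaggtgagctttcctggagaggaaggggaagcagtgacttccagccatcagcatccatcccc
Alas2: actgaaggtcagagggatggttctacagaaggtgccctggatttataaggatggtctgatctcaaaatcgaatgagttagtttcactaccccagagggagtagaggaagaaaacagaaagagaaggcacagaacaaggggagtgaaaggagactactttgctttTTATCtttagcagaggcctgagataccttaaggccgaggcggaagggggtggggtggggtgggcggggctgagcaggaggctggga
The window of Fcer1a holds 1 match, that of Alas2 holds 1 and that of Itga2b 0, while 22.6% of 32851 RefSeq windows of this length hold at least 1. The arrays did not measure binding.

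Markers of more distant blood cells were mostly near background. Of 13 macrophage genes 9 had sh14 means below 1.92, of 13 neutrophil genes 10, and of 11 genes each of the B cell and of the T and NK cell lists 7. Fcgr1, a macrophage Fc receptor, rose from a low level by 0.75 ± 0.12 (adjusted p = 0.00489; 0.28 in its other probe set) and Cd14 by 0.31 at a level near background, and 1 of these passed when any 1 time was left out. Of 5 tested neutrophil genes limma called 0. The B cell list held 2 of 8 genes that fell, Blnk and Tnfrsf13c, the BAFF receptor, which was among the strongest decreases (5.53, 5.71, 5.79 and 5.76 in scr; 3.06, 2.62, 3.49 and 3.54 in sh14).

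**Figure D2:**
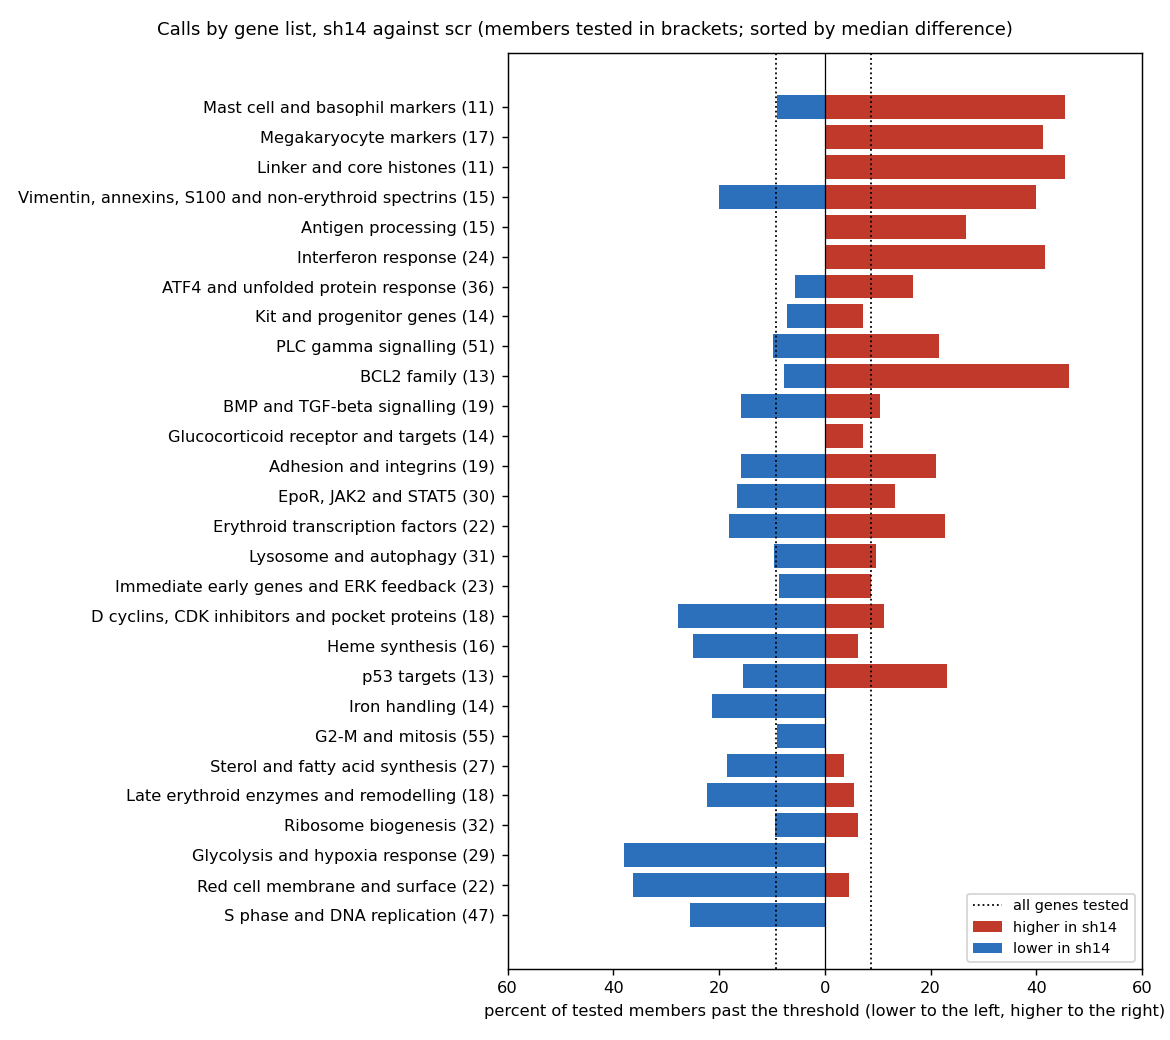
Percent of the tested members of each gene list (horizontal axis) past the threshold, lower in sh14 to the left and higher to the right, with lists of at least 10 tested genes (number in brackets) sorted by median difference. Dotted lines mark all genes tested, 9.19% lower and 8.74% higher; mast cell, megakaryocyte, histone, interferon and BCL2 family lists extend to the right, and glycolysis, red cell membrane and S phase lists to the left.

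The 14 genes with the largest rise among brighter genes were Fcer1a, Abca1, Xaf1, Sphkap, Prune2, Plaat3, Serpinb2, Slc6a13, Cst7, Ramp1, Cd9, Mlkl, Lgals3 and Itga2b. Abca1, which exports cholesterol from cells, was at 4.05, 2.04, 3.80 and 3.86 in scr and at 5.96, 5.66, 6.19 and 7.10 in sh14, 6.92-fold higher (2.79 ± 0.25, adjusted p = 0.0004). Its scr array at 6 h lay well below the other scr arrays. Serpinb2, a plasminogen activator inhibitor, was 4.31-fold higher (2.11 ± 0.22, adjusted p = 0.000745), with 3.47, 3.47, 3.22 and 2.38 in scr and 4.97, 5.18, 5.41 and 5.40 in sh14. Plaat3, a phospholipase of the A class, was higher by 2.12 ± 0.16 and Cst7, a cathepsin inhibitor, by 2.04 ± 0.10. Ramp1, which partners the calcitonin gene-related peptide receptor, was higher by 2.03 ± 0.13, and Slc6a13, a transporter of GABA, by 2.07 ± 0.12. Mlkl, the executor of necroptosis, was at 2.56, 2.45, 2.51 and 2.43 in scr and at 4.35, 4.04, 4.13 and 4.44 in sh14 (1.76 ± 0.10, adjusted p = 5.7e-05). Sphkap, which anchors protein kinase A, rose by 2.44 ± 0.23 and Prune2 by 2.31 ± 0.23. Arrays of the lines overlapped in none of the 14, which is largely built in, since these genes were picked by the size and sign of their differences.

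The 14 genes with the largest fall were Sptbn1, Gstt1, Aldoc, Cdca7l, Cdh2, Rab34, Fkbp9, Nbdy, Insig1, Tnfrsf13c, Lgr4, Rcn3, Tnfrsf13b and Pmp22. None overlapped, which the same way of picking largely builds in. Sptbn1, a beta spectrin of non-erythroid cells, was at 5.69, 4.89, 5.05 and 4.66 in scr and at 1.98, 1.78, 1.45 and 1.58 in sh14, where it was near background (-3.38 ± 0.13, adjusted p = 8.62e-06, a signal of 9.63% of scr). Its next brightest probe sets, at means of 2.43 and 2.08, gave -0.44 and -0.31, so the size of the fall is that of 1 probe set. Gstt1, a glutathione transferase, was at 5.98, 6.36, 6.45 and 6.10 in scr and at 2.31, 3.25, 3.14 and 3.68 in sh14, 11.4% of scr (-3.13 ± 0.18, adjusted p = 5.7e-05). Cdh2, the adhesion protein N-cadherin, was at 5.04, 5.18, 5.09 and 4.15 in scr and at 2.11, 2.45, 1.93 and 1.30 in sh14 (-2.92 ± 0.10, adjusted p = 8.62e-06). Sptbn1 and Cdh2 reached levels at or close to background in sh14, while Gstt1 kept a low signal.

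Other genes of this group belong to distinct compartments. Fkbp9, a prolyl isomerase of the endoplasmic reticulum, was at 7.76, 7.39, 7.55 and 7.36 in scr and at 4.85, 4.41, 4.92 and 4.73 in sh14 (-2.79 ± 0.10, adjusted p = 8.62e-06). Rcn3, a calcium-binding protein of the same compartment, fell by 2.39. Cdca7l, a nuclear protein that interacts with MYC, was at 5.63, 5.65, 5.64 and 5.45 in scr and at 2.74, 2.46, 2.62 and 2.86 in sh14 (-2.92 ± 0.11, adjusted p = 8.62e-06). Rab34, a GTPase of vesicle traffic, fell by 2.84, Nbdy, a small protein of mRNA decapping bodies, by 2.61 and Lgr4, the R-spondin receptor, by 2.43. Tnfrsf13b, the receptor TACI, fell by 2.27 and Pmp22, a myelin protein also made in other cells, by 2.22. Of these 28 genes 6 had further probe sets above the filter, 8 in all, and all 8 had the sign of the brightest, with Prune2 at 2.01 in a probe set as bright and 0.56 in a dimmer one.

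**Figure D3:**
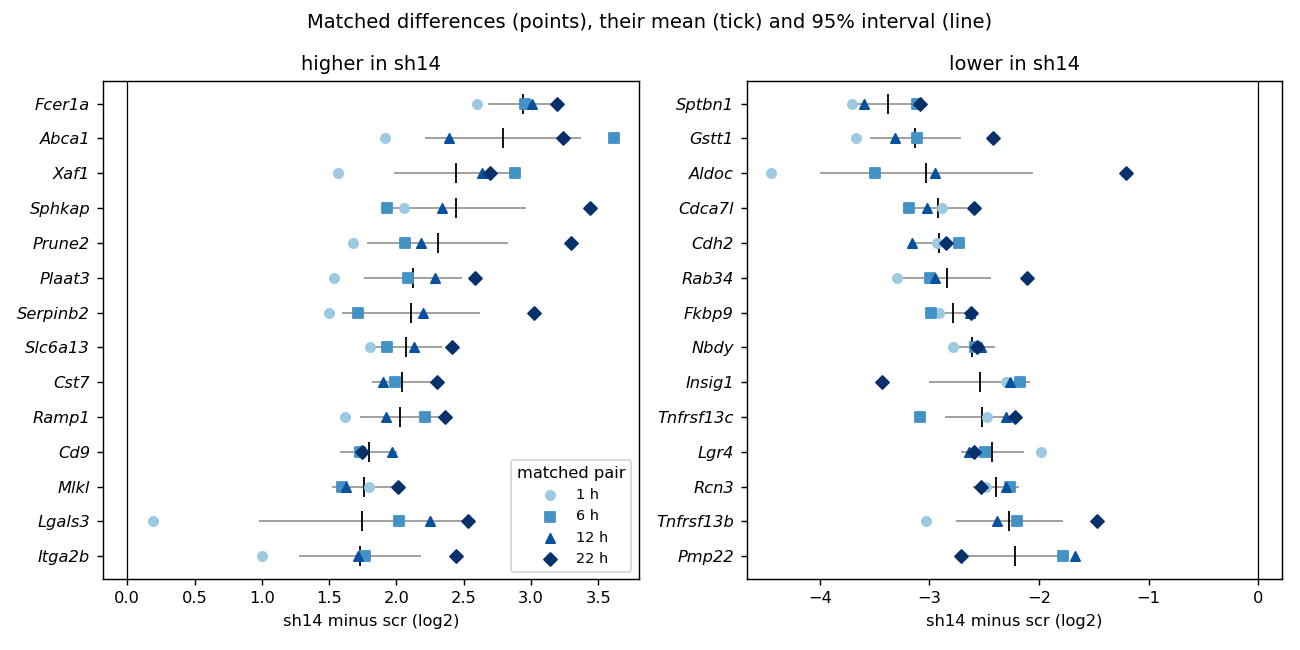
Matched sh14 minus scr differences (horizontal axis, log2) at each time for the 14 genes with the largest rise (left) and the 14 with the largest fall (right), with the mean as a tick and its 95% interval from limma as a line. All points lie on one side of 0, and those of Lgals3 (0.20 at 1 h to 2.53 at 22 h) and Aldoc (-4.45 to -1.21) spread most along the time course.

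Genes of DNA replication that passed were all lower. Of 47 tested S phase genes 12 fell and 0 rose past the threshold, with a median of -0.29. The list median by time was 0.02 at 1 h, -0.14 at 6 h, -0.54 at 12 h and -0.53 at 22 h, beside -0.01 to 0.04 for all genes. Cdc45, a helicase subunit, was at 5.53, 5.58, 6.26 and 6.37 in scr and at 5.12, 5.01, 5.18 and 5.41 in sh14 (-0.76 ± 0.13, adjusted p = 0.00581). The scr signal was higher at the later times and the sh14 signal was nearly level. Pcna, the polymerase clamp, showed the same shape at 11.04, 11.00, 11.44 and 11.60 against 10.83, 10.71, 10.77 and 10.93 (-0.46 ± 0.11, adjusted p = 0.0253). Mcm10 fell by 0.69, Mcm4 by 0.56 and the ligase Lig1 by 0.47. The count of 12 depended on which times were used: it was 23 without the 1 h arrays, 1 without the 6 h arrays, 1 without the 12 h arrays and 2 without the 22 h arrays.

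Of 55 mitotic genes 5 fell and 0 rose past the threshold, a share near that of all genes, with a median of -0.13 that moved from -0.02 at 1 h and 0.11 at 6 h to -0.30 at 12 h and -0.37 at 22 h. They were Cdk1, the mitotic kinase (-0.66 ± 0.13, adjusted p = 0.0116), the kinesins Kif2c (-0.69) and Kif20a (-0.74), Prc1 (-0.56) and Hmmr (-0.44). Without the 12 h arrays 1 was called lower. Among 18 D cyclins, CDK inhibitors and pocket proteins 5 fell and 2 rose. Cdkn1c, the inhibitor p57, was at 4.92, 4.36, 4.26 and 4.69 in scr and at 2.97, 3.42, 3.04 and 3.10 in sh14 (-1.42 ± 0.16, adjusted p = 0.000959). The kinases of the D cyclins moved apart, with Cdk4 lower by 0.77 ± 0.10 in size (adjusted p = 0.00174) and Cdk6 higher by 0.62 ± 0.12 (adjusted p = 0.00847). Rbl2, a pocket protein, fell by 0.99, Ccnd3, the D cyclin of late erythroblasts, by 0.41 and the inhibitor Cdkn2b by 0.43, while Cdkn2d rose by 0.62. Of these, 2 were called lower without the 6 h or without the 12 h arrays.

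In the BCL2 family, which sets the threshold of cell death, 6 of 13 rose and 1 fell, on both sides of that balance. Bcl2, a survival protein, was at 4.63, 4.71, 4.49 and 4.08 in scr and at 4.76, 5.80, 5.69 and 6.13 in sh14 (1.12 ± 0.25, adjusted p = 0.0197). The difference was 0.13 at 1 h and 2.06 at 22 h, and 3 dimmer probe sets above the filter had means of 0.46 to 1.01. The death-promoting genes Bid (0.93 ± 0.12), Pmaip1 (0.76 ± 0.12), Bbc3 (0.54 ± 0.13), Bik (0.44) and Bak1 (0.39) rose, and Bcl2l11, which encodes BIM, fell by 0.65. Of 13 p53 targets, in cells known to lack p53, 3 rose and 2 fell. Perp was higher by 1.28 ± 0.13 (adjusted p = 0.00071), and Mdm2 was at 7.05, 6.56, 6.60 and 6.70 in scr and 6.03, 5.89, 5.87 and 5.92 in sh14 (-0.80 ± 0.10, adjusted p = 0.00128). Bbc3 is in both lists. Of the p53 targets 1 was called higher and 1 lower without the 6 h or without the 12 h arrays. The BCL2 family count was 2 higher without the 6 h or without the 12 h arrays.

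Of 24 tested interferon-induced genes 10 rose and 0 fell past the threshold, at a median of 0.25. Of the 24 tested, 16 were higher at all 4 times, beside 2539 of all 12673 genes. Oas1a, a sensor of double-stranded RNA, was at 4.22, 3.93, 3.99 and 4.17 in scr and at 5.65, 5.49, 5.51 and 5.75 in sh14 (1.53 ± 0.09, adjusted p = 5.32e-05). Ifi27 was at 5.89, 5.79, 5.80 and 5.64 in scr and at 7.12, 7.25, 7.40 and 7.75 in sh14 (1.60 ± 0.14, adjusted p = 0.000361). Xaf1 was near background in scr and 2.44 ± 0.20 higher in sh14. The RNA sensor Ifih1 rose by 0.78, Bst2, which tethers virions, by 0.78, Gbp3 by 0.77, Usp18 by 0.61 and the factor Irf9 by 0.46. In antigen processing 4 of 15 rose and 0 fell past the threshold: the immunoproteasome subunit Psmb9 (1.41 ± 0.11), the peptide transporter Tap1 (1.19 ± 0.16), the peptidase Erap1 (1.16 ± 0.12) and the class I gene H2-D1 (0.51 ± 0.09). None of these 4 overlapped between the lines, which held for 1571 of the 2272 called genes.

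Adhesion genes and cytoskeletal genes moved in both directions. Of 19 adhesion genes 4 rose and 3 fell. Itga6, a laminin receptor subunit, was at 2.29, 2.77, 2.58 and 2.07 in scr and at 4.20, 4.06, 4.41 and 3.51 in sh14 (1.62 ± 0.12, adjusted p = 0.000198). Icam1 fell by 0.88 to near background, Itgav by 0.50, and Cd82 rose by 0.47 (0.16 in its other bright probe set). The count of lower adhesion genes was 1 without the 6 h or without the 12 h arrays. Of 15 genes of vimentin, annexins, S100 proteins and non-erythroid spectrins 6 rose and 3 fell, at a median of 0.27. Anxa2 was at 6.06, 4.24, 3.28 and 2.36 in scr and at 6.47, 5.78, 4.74 and 2.82 in sh14. It dropped with the hours in both lines and was higher in sh14 at each time (0.97 ± 0.20, adjusted p = 0.015). Anxa4 rose by 1.10, Anxa5 by 0.58, S100a4 by 0.65 and Vim by 0.51 (0.13 and 0.43 in its other bright probe sets), and Sptan1, the alpha partner of Sptbn1, fell by 0.74. Without the 12 h arrays 2 genes of this list were called higher, and without the 6 h arrays 3 higher and 1 lower.

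Of 29 tested genes of glycolysis and the hypoxia response 11 fell and 0 rose past the threshold, at a median of -0.21. The list median was -0.73 at 1 h and -0.25, -0.22 and -0.32 at 6, 12 and 22 h. Aldoc, an aldolase, was at 7.59, 6.88, 6.53 and 5.62 in scr and at 3.14, 3.38, 3.58 and 4.41 in sh14 (-3.03 ± 0.42, adjusted p = 0.00264). It dropped in scr and climbed in sh14, so that the lines were closest at 22 h. Limma's test of a change in this difference with log2 hours missed the threshold (adjusted p = 0.0548). Pdk1, which restrains pyruvate oxidation, was at 7.00, 7.22, 7.27 and 7.31 in scr and at 6.22, 6.30, 5.87 and 6.63 in sh14 (-0.94 ± 0.13, adjusted p = 0.00232). The oxygen sensor Egln1 fell by 0.87 and Egln3 by 0.44, the collagen prolyl hydroxylases P4ha1 and P4ha2 by 0.94 and 1.06 (P4ha2 to near background), the phosphofructokinases Pfkl and Pfkm by 0.84 and 0.86, Pgk1 by 0.65 and Hk1 by 0.54.

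Of 27 genes of sterol and fatty acid synthesis 5 fell and 1 rose (median -0.14). Insig1, which holds back the sterol sensor complex, was at 7.05, 6.74, 6.75 and 6.97 in scr and at 4.74, 4.57, 4.49 and 3.54 in sh14 (-2.54 ± 0.20, adjusted p = 0.00022). Idi1, an isomerase of the pathway, was at 10.51, 10.43, 10.04 and 10.11 in scr and at 8.67, 9.00, 9.21 and 9.53 in sh14 (-1.17 ± 0.19, adjusted p = 0.00549). Srebf1, a master factor of lipid synthesis, rose by 0.82 ± 0.11 (adjusted p = 0.00175). With the date string as a term the list median turned to 0.42. Without the 6 h arrays 2 of the list were called lower, 3 without the 12 h or without the 22 h arrays and 8 without the 1 h arrays.

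Stress genes of the ATF4 and unfolded protein response had 6 of 36 higher and 2 lower (median 0.18). Herpud1, an endoplasmic reticulum protein, was at 6.05, 4.93, 4.92 and 4.76 in scr and at 7.32, 6.43, 5.94 and 5.87 in sh14 (1.22 ± 0.11, adjusted p = 0.000345). Nupr1 rose by 1.18 and the serine enzyme Psph by 0.87, whereas the chaperone Hsp90b1 fell by 0.99 and Dnajb9 by 0.59, so the list moved in no single direction. In this list 2 were called higher without the 6 h or without the 12 h arrays. In ribosome biogenesis 2 of 32 rose and 3 fell (median -0.18), or 15.6% called, near the 17.9% of all genes. Heatr1 (-0.85 ± 0.10), Pes1 (-0.72 ± 0.09) and Nolc1 (-0.66 ± 0.12) were lower without overlap, and 9 genes of this list were called lower without the 1 h arrays. Of 31 lysosome and autophagy genes 3 rose and 3 fell, or 19.4% called, also near the share of all genes. Map1lc3b, the autophagosome protein LC3B, was at 8.48, 8.53, 8.56 and 8.66 in scr and at 7.48, 7.33, 7.40 and 7.51 in sh14 (-1.13 ± 0.09, adjusted p = 0.000201), but its other bright probe sets gave -0.25 and -0.36. Lysosome genes called higher numbered 0 without the 6 h or without the 12 h arrays. Of 11 histone genes 5 rose and 0 fell past the threshold (median 0.30), among them H2aw by 1.28 ± 0.18, H2aj by 0.58 and Macroh2a1 by 0.56. Histone genes called numbered 2 without the 6 h or without the 12 h arrays, and 3 without the 22 h arrays.

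Immediate early genes and ERK feedback had 2 of 23 higher and 2 lower, or 17.4% called, near the 17.9% of all genes. The share called was 7.1% for glucocorticoid targets (1 of 14 higher) and 14.3% for Kit and progenitor genes (1 of 14 higher, 1 lower). Phlda1, an early growth factor response gene, was at 5.40, 4.10, 4.09 and 3.20 in scr and at 4.35, 2.41, 2.21 and 1.90 in sh14 (-1.48 ± 0.14, adjusted p = 0.000505). The ERK inhibitors Spred1 and Spred2 rose by 0.43 and 0.78, and Junb fell by 0.46. Without the 6 h arrays 0 early genes were called higher and 1 lower. In the list of BMP and TGF-beta signalling 2 of 19 rose and 3 fell. Bmp2 was lower by 1.22 ± 0.19 in size (adjusted p = 0.00451) and Bmpr2 fell by 0.52. The other gene counted as lower, Lgr4, is the R-spondin receptor described above, not a BMP or TGF-beta receptor. The target Id2 and the receptor Tgfbr1 rose by 0.94 and 0.47.

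**Figure D4:**
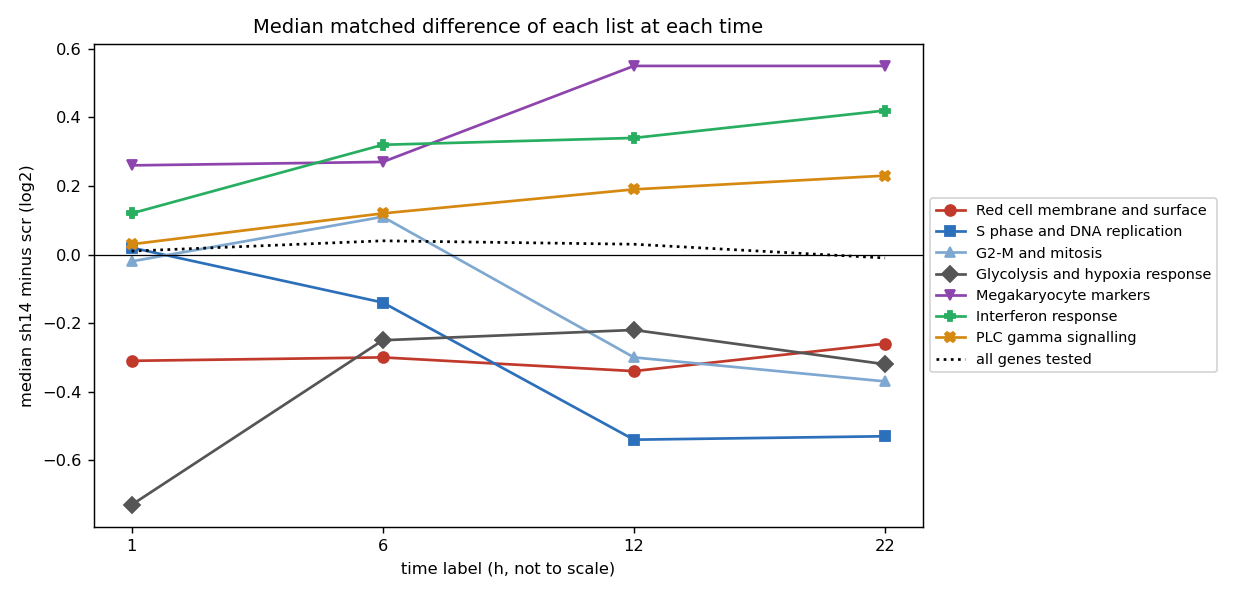
Median matched difference (vertical axis, log2) of 7 gene lists and of all tested genes (dotted) at each time label (horizontal axis, hours, not to scale). The red cell membrane list stays between -0.34 and -0.26, while the S phase list moves from 0.02 at 1 h to -0.53 at 22 h and the glycolysis list is lowest at 1 h, at -0.73.

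Whether the difference between the lines changed with time was tested by its slope on log2 hours. Of all genes 45 passed (0.355%), 39 with an upward and 6 with a downward slope. Kcnn4, a calcium-activated potassium channel known in red cells, was at 3.60, 4.73, 5.46 and 6.61 in scr and at 3.93, 3.51, 4.04 and 4.27 in sh14. It climbed in scr and stayed level in sh14, with a slope of -0.57 log2 per doubling of hours (adjusted p = 0.0204). Rgcc, a cell cycle regulator, behaved alike at 1.81, 2.64, 3.75 and 4.78 in scr and 2.12, 1.71, 1.87 and 1.96 in sh14 (slope -0.68, adjusted p = 0.0204). Tmem109, Neto2 and Susd2 had downward slopes of -0.39, -0.38 and -0.35. Upward slopes were found for Lgals3 (0.53), Tcp11l2 (0.53), Crebrf (0.53), Mapt (0.52), Ypel2 (0.52) and Bcl2 (0.39). Crebrf, a regulator of the stress factor CREB3, was at 5.55, 4.08, 3.89 and 3.69 in scr and at 4.22, 4.21, 4.27 and 4.79 in sh14, so that the lines crossed. Lgals3, the lectin galectin-3, was close in both lines at 1 h (3.71 and 3.91) and at 1.62 and 4.15 at 22 h. This test rests on 2 residual degrees of freedom, and it called 0 genes without the 1 h or without the 6 h arrays, 77 without the 12 h and 110 without the 22 h arrays.

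The other Plcg1 hairpin line allowed a test of which genes also differ between the 2 hairpin lines. Between sh14 and sh133 limma called 3132 genes (24.7%). Of the 28 genes with the largest rise or fall, 26 also differed from sh133 in the same direction, all except Ramp1 (sh14 minus sh133 -0.19, adjusted p = 0.403) and Lgals3 (0.82, adjusted p = 0.0541). Of all 2272 genes called against scr, 1409 were also called against sh133 in the same direction and 48 in the opposite one. For Fcer1a the difference from sh133 was 3.05, for Cdca7l -2.58 and for Gstt1 -3.14, and their sh133 means of 1.08, 5.25 and 6.24 lay beside scr means of 1.20, 5.59 and 6.22. A difference from sh133 does not make a gene particular to sh14, since some lay away from scr in sh133 too. The mean sh133 minus scr was -1.79 for Sptbn1, -1.62 for Aldoc, 1.51 for Slc6a13 and 1.22 for Plaat3, all in the direction of sh14. For Sphkap it was -1.48, in the opposite direction. Plcg2 did not differ detectably between the hairpin lines (-0.02, adjusted p = 0.898), and neither did Fyn (0.24, adjusted p = 0.14) or Nfatc1 (0.23, adjusted p = 0.148). Alas2 stood on opposite sides of scr, with a mean of 5.43 in scr, below it 4.36 in sh14 and above it 6.47 in sh133 (sh14 minus sh133 -2.11, adjusted p = 2.96e-05). The 6 and 12 h arrays of sh14 and sh133 share a date string, and in 27 of the 28 genes sh14 differed from sh133 at both of these times with the sign of its difference from scr. Both hairpin lines are compared with the same scr arrays, so values beside scr are not independent of each other. The same sh14 arrays enter the differences from scr and from sh133. Because the 28 genes were picked by their difference from scr, agreement in sign is partly built in.

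Neighbouring genes differed together in several stretches, which were chosen after their values were seen. On chromosome 10, between Ggt5 and Prmt2, 9 of 14 tested genes fell and 0 rose, at a median of -0.96. Mif, a cytokine, had a mean of 11.70 in scr, against 10.53 in sh14 and 10.49 in sh133. Smarcb1, a chromatin remodelling subunit, had a mean of 7.95 in scr, against 6.51 and 6.41. In sh133 the median difference from scr over the stretch was -0.88. Gstt1, in the same stretch, was at a mean of 3.09 in sh14 beside 6.22 in scr and 6.24 in sh133. Elsewhere on chromosome 10, between Phlda1 and Tspan8, 7 of 11 fell and 2 rose, and Thap2 was lower by 1.86 ± 0.10 in size (adjusted p = 5.07e-05). On chromosome 13, between Barx1 and Fgd3, 7 of 9 rose and 0 fell (median 0.76), beside a median of 0.06 in sh133. On chromosome 6, between Cacna1c and Il17ra, 8 of 11 rose and 0 fell (median 0.55), beside -0.12 in sh133.

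Whole chromosomes differed in their share of called genes. It was 34.5% of 444 genes on chromosome 13 and 33.9% of 602 on chromosome 10, beside 17.9% of all genes, and 12.6% of 522 on chromosome 15. On chromosome 6, 117 of 626 genes were higher and 32 lower, and on chromosome 4, 102 of 789 were higher and 41 lower, while chromosome 10 had 92 higher and 112 lower. DNA copy number was not measured.

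**Figure D5:**
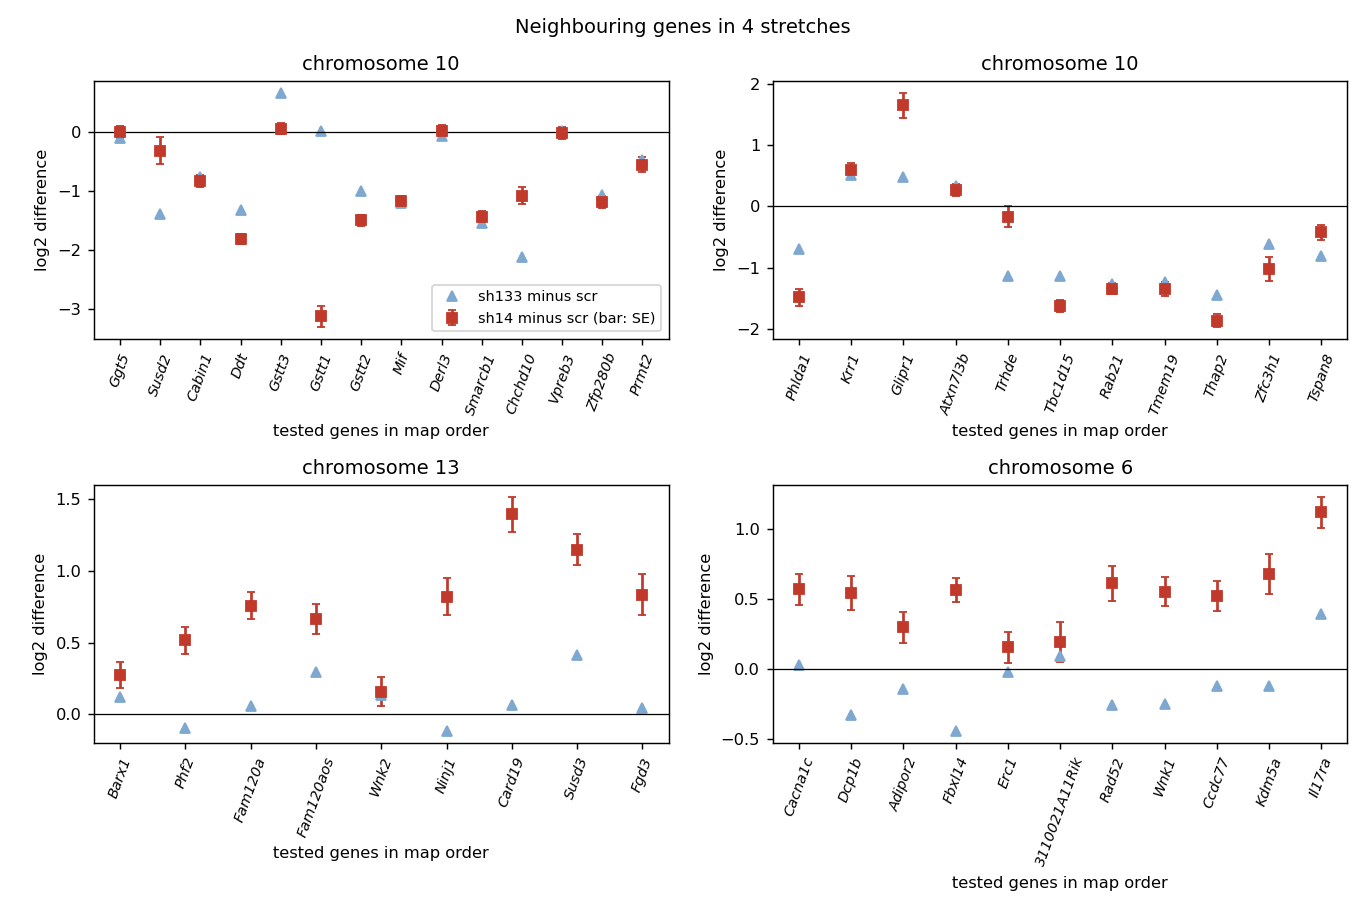
Mean sh14 minus scr (squares, bars are SE from limma, n = 4 matched pairs) and sh133 minus scr (triangles) log2 differences (vertical axis, own range per panel) for neighbouring tested genes in map order (horizontal axis). On chromosome 10 both hairpin lines lie below scr for most genes, while on chromosomes 13 and 6 the sh14 points lie above 0 and most sh133 points near or below 0.

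The date string could be entered as a term only with all 12 arrays, where it rests on the sh133 arrays at 6 and 12 h against those at 1 and 22 h. With it 388 genes were called for sh14 against scr. Of the 2272 genes 377 were called with the same sign, and 56 had the other sign. Of the 28 genes named first 25 passed, the exceptions being Prune2 (1.56, adjusted p = 0.0738), Lgals3 (1.78, adjusted p = 0.154) and Aldoc (-2.57, adjusted p = 0.108). Plcg2 (1.14, adjusted p = 0.00703), Gata2 (1.53, adjusted p = 0.00708) and Alas2 (-1.83, adjusted p = 0.0144) passed. Klf1 (-0.38, adjusted p = 0.284), Epor (-0.23, adjusted p = 0.62), Sptb (-0.70, adjusted p = 0.182), Cdc45 (-0.81, adjusted p = 0.127) and Pf4 (-0.12, adjusted p = 0.962) did not. By list, it left 5 higher and 3 lower in PLCγ signalling, 4 higher in the mast cell, interferon and antigen processing lists each, 2 higher in the megakaryocyte list, 2 lower in the red cell membrane list, and 1 lower each in the S phase and glycolysis lists. It left 0 calls in the histone list (5 without the term), the D cyclin and CDK inhibitor list (7) and ribosome biogenesis (5). None of the genes it left in the EpoR and erythroid factor lists was lower (5 and 4 without the term), and 1 BCL2 family gene was higher (6 without).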

How the data were processed

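The deposited table holds log2 signals of 45101 Affymetrix mouse genome probe sets, made by the authors with RMA per the submitters' processing notes, which name no version. Per the labels' protocols, RNA was amplified and biotin labelled before hybridisation. Probe sets with 1 gene in the platform annotation (34958) were named through the RefSeq table of GRCm38.p6, used for symbols, chromosome and gene order. Of 18194 genes, each read from its brightest probe set, those dimmer than log2 1.45 (percentile 40 of the probe sets) were dropped. limma 3.58.1 in R 4.3.3 fitted line and time to the 8 arrays (3 residual degrees of freedom), with Benjamini-Hochberg adjustment over 12673 genes and a threshold of 0.05. The number of arrays limits the precision, at a median SE of 0.10. The sh133 test used 12 arrays. A list's unmatched members were not analysed here, and some genes (Gata2, Cd9, Itga2b, Fli1, Lat, Blnk, Epor) stand in several lists. Named genes are 10 fixed ones, the 14 largest differences in each direction with a mean of at least 4 in the brighter line, 5 slopes in each direction and up to 5 per list. Others were chosen after their values were seen. Members and lists were chosen with earlier results of these data known. The fit was tested on simulated data. Figures used Python 3.11.15.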

Additional observations from a re-analysis of the deposited data

Results flagged for a closer look

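Among the 10 fixed genes and the 28 with the largest differences, 76 groups of 4 arrays (a gene in a line) were searched for an array far from the other 3, and 6 were found; chance marks about 1 in 20 groups. Each array is a different time, so a lone array may be a time effect. Plcg2 in scr was 4.98 at 1 h and 4.58 to 4.64 at the other times. Stat5a in sh14 was 5.20 at 22 h and 5.60 to 5.68 otherwise. Abca1 in scr was 2.04 at 6 h and 3.80 to 4.05 otherwise. Xaf1 in sh14 was 3.55 at 1 h and 4.31 to 4.45 otherwise. Cdca7l in scr was 5.45 at 22 h beside 5.63 to 5.65, and Cdh2 in scr 4.15 at 22 h beside 5.04 to 5.18.

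For 11 named genes the difference between the lines changed with time by limma's slope test, in log2 per doubling of hours: Lgals3 0.53, Tcp11l2 0.53, Crebrf 0.53, Mapt 0.52, Ypel2 0.52 and Bcl2 0.39 upward, and Rgcc -0.68, Kcnn4 -0.57, Tmem109 -0.39, Neto2 -0.38 and Susd2 -0.35 downward.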

How the results depend on the processing

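Of 2272 genes called for sh14 against scr (1107 higher, 1165 lower), the counts were 388 (190 and 198) with the date string as a term, 1376 (686 and 690) without the time term and 1227 (588 and 639) with signals under log2 2 set to 2. Leaving out the arrays of 1 time gave 1026 to 2414 genes in all, 459 to 1233 higher and 547 to 1181 lower, lowest without 12 h (in all and higher) or 6 h (lower). Under 12 arrays, other filters, probe set means, median scaling or an intensity trend the counts stayed within 1.5 times. Pf4 turned from 1.06 to -0.12 with the date string. The 28 leading genes kept their sign under every setting that tested them. The slope count of 45 was 193 with hours in rank order, 356 with 12 arrays, 86 without a filter, 233 with the stricter filter, 183 with probe set means, 144 with median scaling, 480 with an intensity trend and 0 with the floor (2237 at an unadjusted p under 0.05 in limma), and 0 to 110 when 1 time was left out, so which genes change over time is not settled by these 8 arrays. For sh14 against sh133 the 3132 genes became 1856 with the date string, and 1817 to 3174 when 1 time was left out, lowest without 12 h. No paired analysis was possible because, beyond the matching by time already in the fit, the labels give no replicate numbers to pair by.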
